A study of Mus musculus with 30 samples.

Results

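The enzymes that make NAD+ and NADP+ from vitamin precursors were followed across hearts and cultured cells, 10 genes in all. They are defined by the reaction they catalyse, without a rule on measured values but with earlier results of these data known, and comprise Nampt, Nmrk1, Nmrk2, Nmnat1, Nmnat2, Nmnat3, Naprt, Nadsyn1, Nadk and Nadk2. All 10 were listed among the 20764 genes of the heart table and the 54532 genes of the table for HL-1 cells. The hearts, 18 in all, were those of females on a mixed C57BL/6J and C57BL/6N background, and bulk RNA was sequenced from each. Hearts came from mice aged 2 months (young) and 12 months (old H2O), both with the treatment label MQ and without nicotinamide riboside, and from mice aged 12 months given nicotinamide riboside (NR) at 3 g/L in their drinking water (old NR). Each was collected at ZT10 (day) and ZT22 (night), with 3 mice per group, and NR was given to whole cages from the age of 2 months. A further 12 libraries came from HL-1, a line grown from an atrial tumour of a female C57BL/6J mouse, with 3 cultures each left untreated, given FK866 (an inhibitor of the NAMPT enzyme), given FK866 and NR, or given FK866, NR and Ex527 (an inhibitor of the deacetylase SIRT1).

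NAD+ is rebuilt in most tissues from nicotinamide, which NAMPT joins to a phosphoribosyl group to give nicotinamide mononucleotide. The NR kinases encoded by Nmrk1 and Nmrk2 reach the same intermediate from NR, Nmrk1 being widely expressed and Nmrk2 being a muscle gene. Nmnat1 (nuclear), Nmnat2 (Golgi and axonal, mostly neuronal) and Nmnat3 (mitochondrial) encode the enzymes that then add the adenylyl group and complete the dinucleotide. Naprt encodes the enzyme that starts from nicotinic acid, whose product NADSYN1 later amidates, and the NAD kinases of the cytosol (Nadk) and of mitochondria (Nadk2) add the phosphate of NADP+. In the liver and several other organs the Nampt transcript is known as an output of the circadian clock, and in heart muscle NAMPT is held to be the main entry point to NAD+.

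On the GRCm38 (mm10) assembly the genes lie apart from each other, all protein-coding, with these limits in the files and in GENCODE M21. Nampt (ENSMUSG00000020572) spans chromosome 12, 32819545 to 32853349, on the plus strand. Nmrk1 (ENSMUSG00000037847) spans chromosome 19, 18631950 to 18652194 in the files, plus strand, and its end lies at 18652428 in GENCODE M21. Nmrk2 (ENSMUSG00000004939) is a compact gene of 7 exon blocks on the minus strand of chromosome 10, 81198170 to 81202051. Nmnat1 (ENSMUSG00000028992) lies on chromosome 4, 149467572 to 149485202, minus strand, and Nadk (ENSMUSG00000029063) on the same chromosome, 155562378 to 155591001, plus strand. Nmnat2 (ENSMUSG00000042751) lies on chromosome 1, 152954993 to 153119261, plus strand, and Nmnat3 (ENSMUSG00000032456) on chromosome 9, 98287435 to 98420438, plus strand. Naprt (ENSMUSG00000022574, 75890956 to 75894481, minus strand) and Nadk2 (ENSMUSG00000022253, 9071260 to 9110891, plus strand) are both on chromosome 15. Nadsyn1 (ENSMUSG00000031090) spans chromosome 7, 143795584 to 143822849, minus strand.

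Because hearts were collected at ZT10 and ZT22, the bases before the start site were searched for the usual clock motifs on both strands: the E-box CACGTG, the E-prime box CACGTT, the D-box as TTATGTAA or TTACGTAA, and the ROR element TAGGTCA. The table of RefSeq start sites used here (GRCm38.p6) was matched for 8 of the 10 members, and for the 250 bases before each of their 10 start sites a single match was found, an E-box before the second Nadk start. Of all 32851 start sites listed there, 6.02% held an E-box in this window, 3.85% an E-prime box, 0.931% a D-box and 2.23% a ROR element, 12.5% holding at least 1 of them. The windows of Nmrk2 and Nmnat3, the members with the largest called differences between times or ages, and of Nampt, the most abundant member in hearts, are shown 5′ to 3′ with each CG dinucleotide in capitals.
Nmrk2, chr10:81202038-81202287, minus strand: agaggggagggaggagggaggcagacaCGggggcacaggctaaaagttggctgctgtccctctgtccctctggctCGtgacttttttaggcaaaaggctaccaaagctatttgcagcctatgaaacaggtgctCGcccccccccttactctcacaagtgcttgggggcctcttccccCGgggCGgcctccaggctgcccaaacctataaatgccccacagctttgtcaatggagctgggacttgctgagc
Nmnat3, chr9:98296320-98296569, plus strand: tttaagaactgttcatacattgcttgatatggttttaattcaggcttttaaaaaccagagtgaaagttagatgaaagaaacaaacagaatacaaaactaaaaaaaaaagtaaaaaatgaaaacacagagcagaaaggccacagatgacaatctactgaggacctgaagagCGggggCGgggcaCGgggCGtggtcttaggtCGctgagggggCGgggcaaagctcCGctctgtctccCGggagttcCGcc
Nampt, chr12:32820085-32820334, plus strand: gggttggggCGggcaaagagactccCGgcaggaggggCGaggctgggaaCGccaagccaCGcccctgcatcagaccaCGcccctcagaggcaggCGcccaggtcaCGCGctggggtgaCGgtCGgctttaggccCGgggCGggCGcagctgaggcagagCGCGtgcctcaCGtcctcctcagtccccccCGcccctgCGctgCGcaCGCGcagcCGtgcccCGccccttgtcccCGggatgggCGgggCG
The window of Nmrk2 held 5 CG dinucleotides and that of Nmnat3 held 9, against a median of 6 over all start sites, whereas Nampt held 27, more than 91.4% of all start sites. No window shown held any of the 4 motifs, which says only that these letters were not in these bases. By the gene limits given above, the windows of Nampt and Nmnat3 lie inside the gene, after its first annotated base. The bases before those outer limits were not searched.

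Per length, Nampt was the most abundant member in the hearts, and Nadk in the HL-1 cells. In hearts the mean RPKM (counts scaled to library size and exonic length, SD over 18 hearts) was 68.7 ± 7.03 for Nampt, 30.9 ± 2.52 for Nadk2, 23.8 ± 1.86 for Nadk, 18.3 ± 1.45 for Nmnat1 and 15.1 ± 3.63 for Nmrk2. Naprt followed at 11.2 ± 1.33, Nmnat3 at 9.2 ± 1.18, Nadsyn1 at 3.83 ± 0.461, Nmrk1 at 3.82 ± 0.56 and Nmnat2 at 0.161 ± 0.0753. In this order the ranges over the hearts of Nampt and Nadk2, of Nadk and Nmnat1, of Nmnat3 and Nadsyn1 and of Nmrk1 and Nmnat2 did not overlap. Those of Nadk2 (25.2 to 34.8 RPKM) and Nadk (21.2 to 27.7) met at their ends, and Nmnat1 and Nmrk2, Nmrk2 and Naprt, Naprt and Nmnat3, and Nadsyn1 and Nmrk1 overlapped as neighbours. For the HL-1 cells the authors' FPKM were used, which count fragments per length. They come from other library, counting and scaling steps than the heart values, so the 2 scales are not to be compared gene by gene. The FPKM averaged 72.4 ± 5.88 (SD, n = 12) for Nadk, 29.7 ± 2.71 for Nampt, 5.22 ± 0.411 for Nadk2, 4.57 ± 0.35 for Nmnat1 and 4.42 ± 0.47 for Nmrk1. The lower members were Nmnat3 at 2.02 ± 0.334, Naprt at 1.85 ± 0.409, Nadsyn1 at 1.5 ± 0.159 and Nmnat2 at 0.784 ± 0.153. Nmrk2, at place 5 among the members in hearts, had 0 counts in all 12 HL-1 libraries, which over 313592782 counts allows a level of up to 0.00957 CPM (counts-per-million), for counting error only. That state was not rare, since 22.3% of the protein-coding genes listed were at 0 in all 12 libraries.

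**Figure D1:**
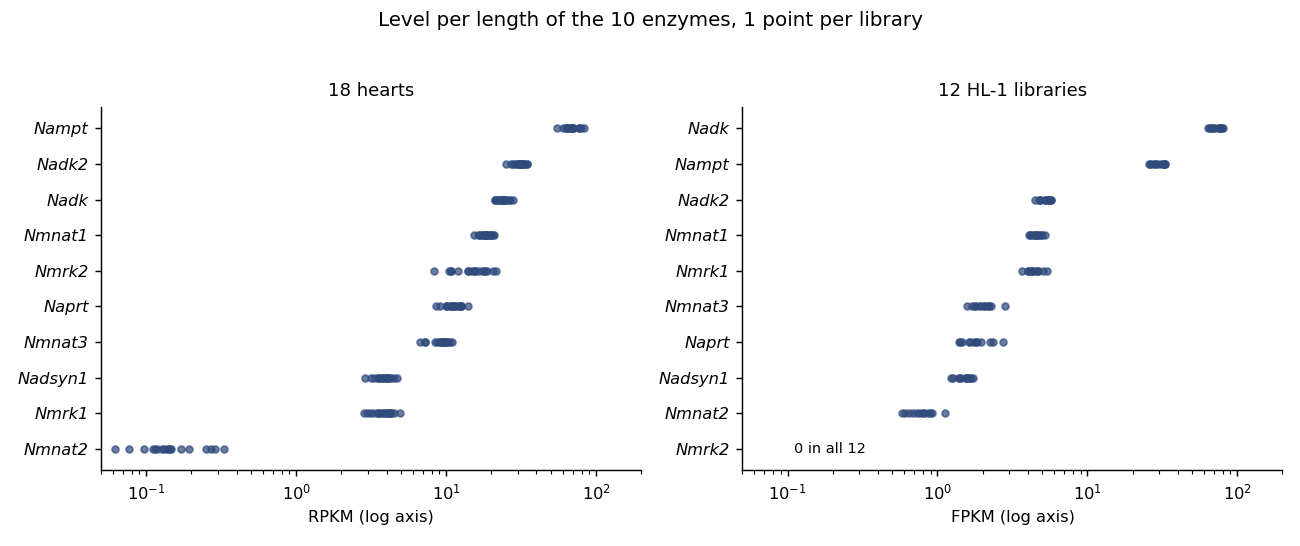
Level per length of the 10 enzymes on a log axis, with 1 point per library, as RPKM in 18 hearts (left) and as the authors' FPKM in 12 HL-1 libraries (right), each panel ordered by its own mean. Nampt led in hearts at a mean of 68.7 RPKM and Nadk in HL-1 cells at 72.4 FPKM, and Nmrk2 was at 0 in all 12 HL-1 libraries.

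The HL-1 libraries did not carry the markers of their label. Myl2 and Actc1, which encode a ventricular light chain and cardiac actin, were at 0 counts in all 12 libraries, and 8 ventricular markers together reached 0.262 to 4.45 CPM, against 5490 to 8480 in the hearts. The 7 atrial markers summed to 7.17 to 12 CPM, while 6 fibroblast markers, among them the collagen genes Col1a1 and Col3a1, summed to 2540 to 4140. One library, replicate 1 of FK866 with NR, also stood apart, with 561 counts of the neuronal gene Snap25 where the other 11 had 0. For comparisons that involve that group, the numbers of genes called are also given without it, as are the values of Nampt, Nadk, Naprt, Nmnat2 and Nt5e. Among the hearts, replicates 1 and 3 of old NR at ZT10 differed by little more than counting noise (chi-square per degree of freedom 1.06, p = 2.44e-07, where the other pairs within a group had 1.65 to 6.14), and they were kept as 2 samples, with an alternative that sums them. Heart libraries held 3922137 to 7562215 counts and HL-1 libraries 21337922 to 35000109. The hearts are bulk tissue, in which fewer cells of a type and less RNA per cell cannot be told apart.

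Counts per gene were tested with edgeR's quasi-likelihood test, two-sided, and each p adjusted over all genes tested (Benjamini-Hochberg). A member was called at an adjusted p under 0.05 in hearts, and in HL-1 cells at an adjusted p under 0.01 with a change over 1.5-fold. All 10 members passed the count minimum in hearts, Nmnat2 narrowly with a mean count of 5.17, and 9 passed in HL-1 cells. Between ZT10 and ZT22, 1 of 10 members was called in young hearts, where 14.4% of all genes tested were called, 1 in old H2O hearts (4.2% of all genes) and 1 in old NR hearts (5.37%). Over the mean of these 3 contrasts 1 member was called, against 13.9% of all genes. For old H2O against young hearts the counts were 1 of 10 at ZT10 (5.87% of all genes), 3 of 10 at ZT22 (14.1%) and 2 of 10 over the mean of both times (11.8%), and for the age by time interaction 2 of 10 (6.89%). For old NR against old H2O, 0 of 10 members were called at ZT10 (0.285% of all genes), 0 at ZT22 (0.35%) and 0 over the mean of both times (0.337%), where 5, 3 and 2 had an unadjusted p under 0.05 (1565, 1737 and 1672 of all 15443 genes) and DESeq2 called 1, 0 and 0. The NR by time interaction was called for 1 of 10 (0.343%). For old NR against young hearts, 0 of 10 were called at ZT10 (4.28%), with 3 at an unadjusted p under 0.05 (2729 of all genes) and 0 by DESeq2, and 5 of 10 were called at ZT22 (14.2%). The members' median log2 fold change lay between -0.21 and 0.15 over these contrasts, and that of all genes tested between -0.01 and 0.01. Several contrasts share a group, such as old H2O at ZT10, and are therefore not independent. Lack of overlap between groups of 3, given below for single members, was common among all genes. Between times it held for 30.6% of them in young, 22.2% in old H2O and 22.2% in old NR hearts. For age it held for 27.8% at ZT10 and 28.2% at ZT22, and for NR against old H2O for 18.8% and 14.7%. For old NR against young hearts the shares were 25.4% and 27.5%, and over the HL-1 contrasts 29.5% to 45%.

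Nmrk2 was the NR kinase gene of higher level in hearts and varied widely among them. Its coefficient of variation over the 18 hearts was 24.1%, against 7.78% to 14.7% for 8 other members and 46.6% for the sparsely counted Nmnat2. Normalized counts (counts scaled to a common effective library size) were 182, 191 and 183.5 in the young hearts at ZT10 and 158, 219.7 and 143 at ZT22. In old H2O hearts they were 107.5, 110.0 and 109.4 at ZT10 and 186, 151 and 159.6 at ZT22. The old H2O hearts at ZT10 therefore lay close together and under every young heart and every old H2O heart at ZT22. In old NR hearts the values were 160.3, 209.6 and 169.5 at ZT10 and 85.5, 143 and 123 at ZT22, so that these groups did not overlap either, and ZT10 was the higher.

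In old H2O hearts at ZT10 Nmrk2 was lower than in young hearts by a log2 fold change of -0.77 (SE 0.16, adjusted p = 0.00643), a mean of 109 ± 1.28 against 185.5 ± 4.82 (SD, n = 3). That call was kept when any of the 6 hearts was omitted (-0.78 to -0.74) and under each of 6 other settings. At ZT22 the same contrast was -0.10 (SE 0.15, adjusted p = 0.726), and the groups overlapped. The difference between the ages' time contrasts, -0.67 (SE 0.22), had an adjusted p of 0.073 and was not called. It stayed uncalled in 11 of 12 fits that omitted a heart and under 4 of 6 other settings. Over all alternatives its adjusted p was 0.0162 to 0.177. The omission that gave a call was that of young replicate 2 at ZT22, the highest heart of all at 219.7 (-0.89, adjusted p = 0.0162). Averaged over both times, Nmrk2 was lower with age by -0.43 (SE 0.11, adjusted p = 0.014), and that call was lost without the same young heart (-0.32, adjusted p = 0.051).

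The time contrast of Nmrk2 ran in opposite directions in the old groups. From ZT10 against ZT22 it was -0.58 (SE 0.16, adjusted p = 0.0441) in old H2O hearts, 0.58 (SE 0.15, adjusted p = 0.0258) in old NR hearts and 0.08 (SE 0.15, adjusted p = 0.792) in young hearts. The old H2O call was lost when any of its 6 hearts was omitted, with values of -0.64 to -0.52. The old NR call was lost without replicate 2 (0.45) or 3 (0.63) at ZT10 and without replicate 1 (0.45) or 3 (0.60) at ZT22. The NR by time interaction, which tests the difference between those contrasts, was 1.17 (SE 0.22, adjusted p = 0.0201), 1 of 53 genes called for it. It was lost without old H2O replicate 1 (1.17, adjusted p = 0.058) or 3 (1.17, adjusted p = 0.0591) at ZT10 and without old NR replicate 2 at ZT10 (1.04, adjusted p = 0.0731).

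Set against old H2O directly, Nmrk2 with NR was higher at ZT10 by 0.73 (SE 0.16, adjusted p = 0.0514), just outside the threshold, with all 3 old NR hearts above all 3 old H2O hearts. DESeq2 placed it inside (0.72, adjusted p = 0.0154), as did a fit of these groups alone (0.73, adjusted p = 0.00175), and over all alternatives the adjusted p was 0.00175 to 0.268. At ZT22 the difference was -0.44 (SE 0.16, adjusted p = 0.268), every old NR heart being under every old H2O heart. Against young hearts, old NR hearts had -0.04 (SE 0.15) at ZT10 and -0.54 (SE 0.16, adjusted p = 0.0244) at ZT22, the latter lost without old NR replicate 1 (-0.39) or 3 (-0.55) or young replicate 2 (-0.32). Beside the ZT10 values, the 7 atrial markers summed to 215 to 227 CPM in old NR hearts and 561 to 756 in old H2O hearts, and 3 of the 7 were called lower, while the 7 skeletal muscle markers listed (of 8) overlapped at 168 to 196 and 126 to 253. Sums were also lower with NR, without overlap, for the 6 fibroblast markers (974 to 1130 against 1240 to 1420, 1 called lower), the 6 macrophage markers (295 to 324 against 339 to 381, 0 called) and the 5 red blood cell markers (126 to 143 against 151 to 177, 0 called). The 8 ventricular markers met at their ends, at 5500 to 6360 with NR and 6340 to 7360 without, with 0 called. At ZT22 the fibroblast markers summed to 1050 to 1210 with NR against 1250 to 1520, with 1 called lower. The macrophage markers summed there to 286 to 306 against 373 to 421, with 3 called lower. The part of any of these cells in the Nmrk2 values was not tested.

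**Figure D2:**
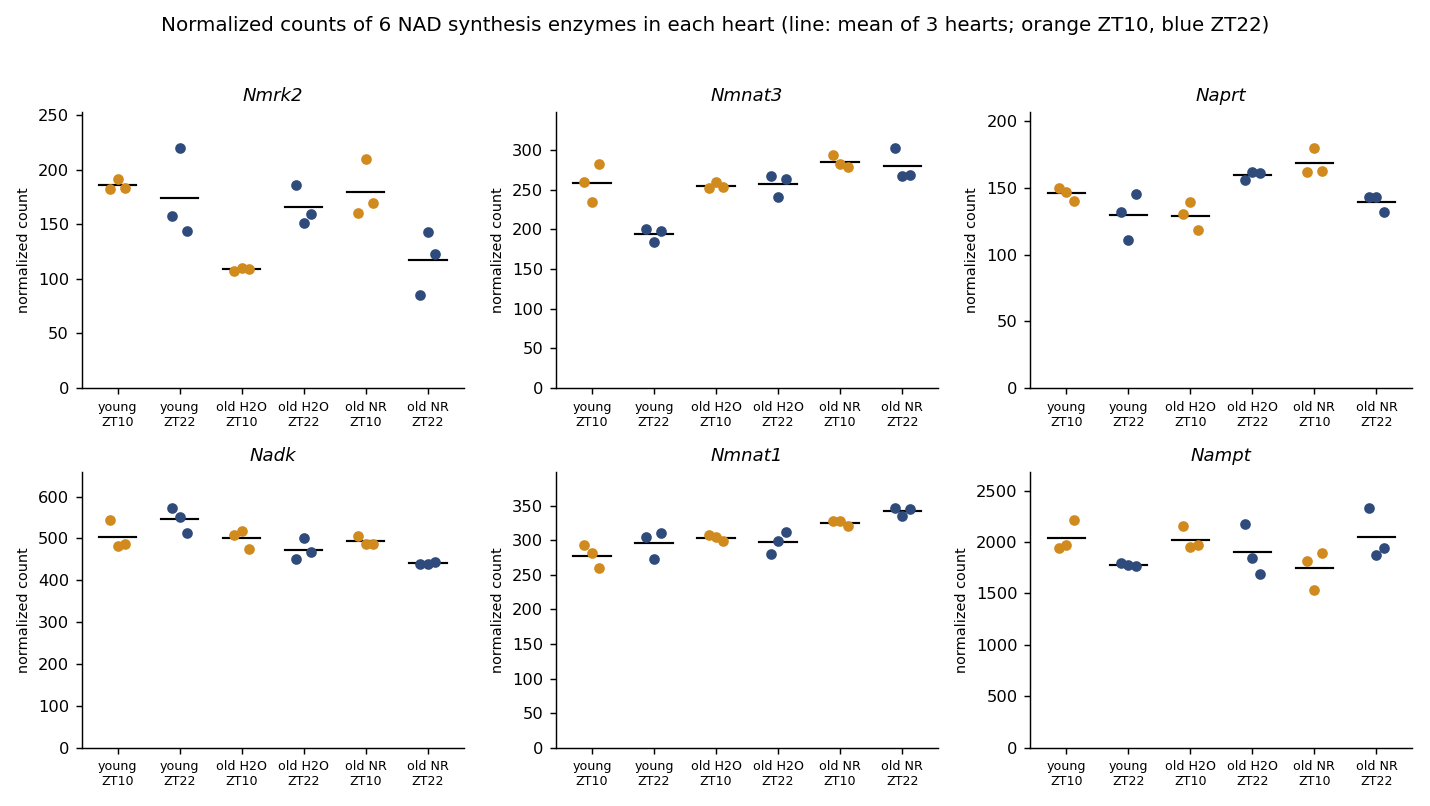
Normalized counts of 6 enzymes in each of 18 hearts, with 1 panel per gene, 3 points and their mean for each of 6 groups, ZT10 in orange and ZT22 in blue. Nmrk2 in old H2O hearts at ZT10 (107.5 to 110.0) and Nmnat3 in young hearts at ZT22 (185 to 199.99) each lay under every heart of the same group at the other time and of the other groups at the same time.

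Nmrk2 shares 270 of its 1854 exonic bases (14.6%) with Atcayos, an antisense gene on the plus strand (chromosome 10, 81194609 to 81210877). The heart libraries were made with a stranded kit and reads over several genes were dropped, but the strand setting of the counting is not given in the sources used here, so that reads of the partners may not be fully told apart. Atcayos was examined after the values of Nmrk2 were seen. Its normalized counts were 816, 782 and 827 in old NR hearts at ZT10 and 688, 592.5 and 537 in old H2O hearts at ZT10, without overlap. At ZT22 they were 542, 514 and 477 with NR and 606, 576 and 537 without, the lowest old H2O heart lying under the highest old NR heart. Like Nmrk2, Atcayos had a positive NR by time interaction (0.58, SE 0.11, adjusted p = 0.0202) and a higher level with NR at ZT10 (0.42, SE 0.08, adjusted p = 0.0252). Unlike Nmrk2, it was higher at ZT10 in young hearts (0.44, SE 0.08, adjusted p = 0.000678) and its time contrast in old H2O hearts was 0.09 (SE 0.08, adjusted p = 0.615).

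**Figure D3:**
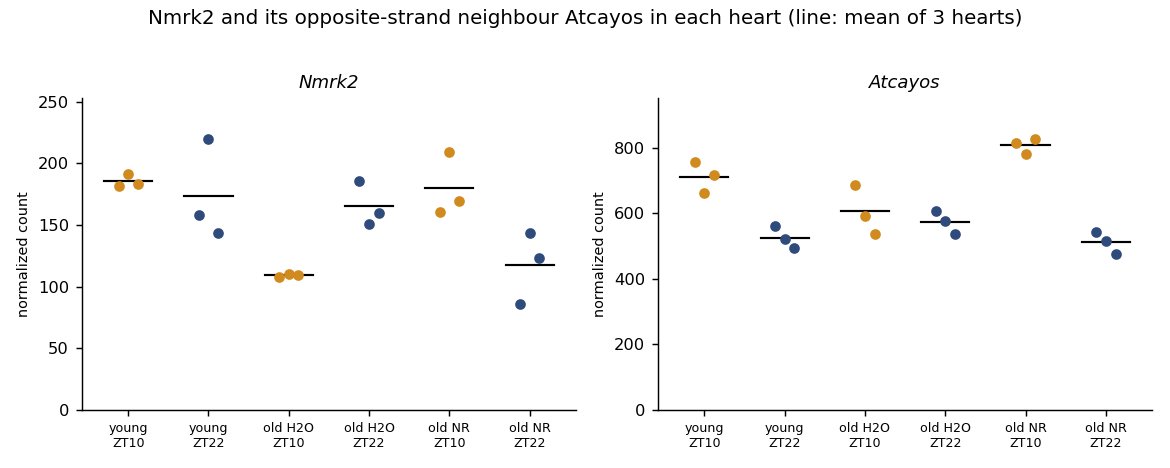
Normalized counts of Nmrk2 (left) and of its opposite-strand neighbour Atcayos (right) in each heart, 3 points and their mean per group, ZT10 in orange and ZT22 in blue. In old NR hearts both genes were higher at ZT10, whereas in young hearts the gap between times was 0.44 on the log2 scale for Atcayos and 0.08 for Nmrk2.

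The other NR kinase gene, Nmrk1, was called in no contrast. It ranged from 52.4 to 91.7 normalized counts over the 18 hearts, its largest contrast being -0.35 (SE 0.16, adjusted p = 0.254) for ZT10 against ZT22 in old NR hearts. For NR against old H2O it was -0.02 (95% interval -0.35 to 0.31) at ZT10 and 0.20 (-0.11 to 0.51) at ZT22. It averaged 72.5 counts per heart, and smaller changes could not be seen at this depth.

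Nmnat3, for the mitochondrial enzyme of that step, was lowest in the young hearts at night. Its normalized counts in young hearts were 260.4, 235 and 282 at ZT10 and 199.99, 185 and 199 at ZT22, so the times did not overlap. In old H2O hearts the values were 253, 259.6 and 253 at ZT10 and 267, 241 and 263 at ZT22. With NR they were 294, 283 and 279 at ZT10 and 303, 268 and 268 at ZT22. The young hearts at ZT22 thus stood under all 15 other hearts.

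ZT10 exceeded ZT22 for Nmnat3 in young hearts by 0.41 (SE 0.08, adjusted p = 0.00119), while the contrast was -0.01 (SE 0.08) in old H2O hearts and 0.04 (SE 0.07) in old NR hearts. At ZT22 old H2O exceeded young hearts by 0.40 (SE 0.08, adjusted p = 0.00176), and old NR exceeded young hearts by 0.52 (SE 0.08, adjusted p = 0.000139). These 3 calls were kept when any heart of the contrast was omitted and under each other setting run. The age by time interaction was -0.42 (SE 0.11, adjusted p = 0.0244), lost with DESeq2 (-0.41, adjusted p = 0.0935, over all alternatives 0.0154 to 0.0935) and without old H2O replicate 3 at ZT10 (-0.41) or at ZT22 (-0.40), young replicate 3 at ZT10 (-0.36) or young replicate 2 at ZT22 (-0.38). All 3 contrasts rest on the young ZT22 hearts and are not separate evidence. NR against old H2O gave 0.16 (SE 0.07, adjusted p = 0.476) at ZT10 and 0.12 (SE 0.07, adjusted p = 0.619) at ZT22, neither called. The groups did not overlap at either time, as for 18.8% and 14.7% of all genes. Over the mean of both times Nmnat3 rose with age by 0.19 (SE 0.06, adjusted p = 0.0264), and over the mean of the 3 time contrasts it was higher at ZT10 by 0.15 (SE 0.04, adjusted p = 0.0273). Both were lost with DESeq2 (adjusted p = 0.0989 and 0.102), the former in 4 of 12 and the latter in 7 of 18 fits that omitted a single heart, at 0.16 to 0.22 and 0.13 to 0.17.

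Beside the ZT22 age contrast, the 6 macrophage markers summed to 373 to 421 CPM in old H2O hearts and 252 to 296 in young hearts, with 5 of the 6 called higher. In old NR hearts they summed to 286 to 306. The 8 ventricular markers overlapped, at 5600 to 8480 in old H2O and 6170 to 7460 in young hearts. The 7 skeletal muscle markers listed were lower without overlap, at 159 to 200 in old H2O and 160 to 177 in old NR hearts against 212 to 274 in young hearts, with 0 of the 4 tested called between old H2O and young. For old NR against young hearts at ZT22, the 6 fibroblast markers summed to 1050 to 1210 against 1370 to 1410, with 3 called lower. The 5 endothelial markers summed to 1270 to 1430 against 1510 to 1600, with 2 called lower, and neither list overlapped. The part of these cells in the values of the members was not tested.

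Nmnat1, the nuclear enzyme, and Nmnat2 differed less clearly. Nmnat1 had 327, 329 and 320.2 normalized counts in old NR hearts at ZT10 and 347, 335 and 345 at ZT22. In old H2O hearts it had 308, 305 and 299.6 at ZT10 and 280.1, 299.6 and 311 at ZT22, and in young hearts 293, 281 and 259.8 at ZT10 and 304, 273 and 311 at ZT22. The old NR hearts were above all 12 others. Against young hearts the old NR hearts were higher by 0.21 at ZT22 (SE 0.07, adjusted p = 0.0335), a call lost with DESeq2 (adjusted p = 0.154, over all alternatives 0.0349 to 0.207) and without any old NR replicate (0.20 to 0.23) or young replicate 2 (0.15). Against old H2O the differences were 0.10 (SE 0.07, adjusted p = 0.631) and 0.19 (SE 0.06, adjusted p = 0.221), not called. Nmnat2 had 2 to 10 counts per heart, no call and wide intervals, such as -0.78 to 1.27 for NR at ZT10. Its largest contrasts between 2 groups both involved the young hearts at ZT22, without overlap. Old H2O against young hearts at ZT22 gave -0.97 (interval -1.92 to -0.02, unadjusted p = 0.0573, adjusted p = 0.198). ZT10 against ZT22 in young hearts gave -0.96 (-1.95 to 0.02, adjusted p = 0.228).

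**Figure D4:**
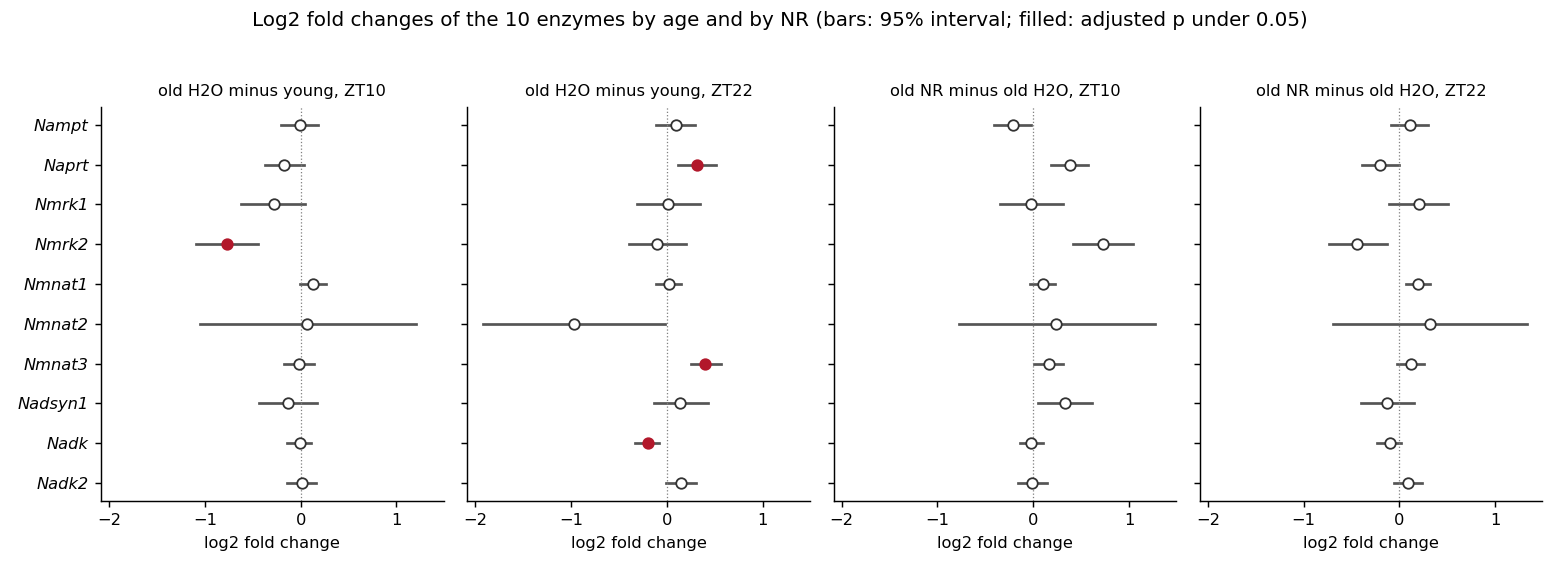
Log2 fold change of each of the 10 enzymes with its approximate 95% interval, for old H2O against young hearts and for old NR against old H2O hearts, each at ZT10 and ZT22, filled where the adjusted p was under 0.05. With age Nmrk2 was lower at ZT10 (-0.77) and Nmnat3 (0.40), Naprt (0.31) and Nadk (-0.20) changed at ZT22, and no member was filled for NR.

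Naprt, which starts the nicotinic acid route, had time contrasts that differed in sign between groups, none of them called. For ZT10 against ZT22 they were 0.18 (SE 0.10, adjusted p = 0.276) in young and -0.30 (SE 0.10, adjusted p = 0.0916) in old H2O hearts. In old NR hearts the contrast was 0.28 (SE 0.10, adjusted p = 0.098). It had 150.4, 147 and 140.4 normalized counts in young hearts at ZT10 and 132, 111 and 145 at ZT22, which overlapped. Old H2O hearts had 130.4, 139 and 118 at ZT10 and 156, 162 and 161 at ZT22, without overlap. Old NR hearts had 162, 180.0 and 163 at ZT10 and 143.5, 143 and 132 at ZT22, also without overlap and with the times the other way round.

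Old H2O hearts exceeded young hearts for Naprt at ZT22 by 0.31 (SE 0.10, adjusted p = 0.0389), and at ZT10 the contrast was -0.17 (SE 0.10, adjusted p = 0.38). Over all alternatives the adjusted p of the ZT22 contrast was 0.0194 to 0.241. The ZT22 call was lost with DESeq2 (adjusted p = 0.125) and without old H2O replicate 2 (0.30) or 3 (0.31) or young replicate 1 (0.33) or 2 (0.20). The age by time interaction, -0.48 (SE 0.14, adjusted p = 0.0436), was likewise lost with DESeq2 (adjusted p = 0.136, over all alternatives 0.0234 to 0.136) and in 8 of the 12 fits that omitted a single heart, at -0.58 to -0.38 over all 12. NR against old H2O gave 0.38 at ZT10 (SE 0.10, adjusted p = 0.122) and -0.20 at ZT22 (SE 0.10, adjusted p = 0.44), and the NR by time interaction 0.58 (SE 0.14, adjusted p = 0.0806), none of them called. Of the 2344 exonic bases of Naprt, 277 are shared with Eef1d on the same strand, whose contrasts in hearts lay between -0.15 and 0.11 with no adjusted p under 0.214. Nadsyn1, which finishes that route, had 52.4 to 86.1 normalized counts and no call, with 0.33 (SE 0.14, adjusted p = 0.43) for NR at ZT10.

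Nampt, the main salvage enzyme, was called in none of the 14 contrasts in hearts. Its normalized counts were 1946, 1966 and 2210.1 in young hearts at ZT10 and 1794, 1774 and 1771 at ZT22, which did not overlap, and the time contrast was 0.20 (SE 0.10, adjusted p = 0.215). Old H2O hearts had 2154, 1948 and 1969 at ZT10 and 2170.3, 1841 and 1688 at ZT22, a contrast of 0.10 (SE 0.10, adjusted p = 0.659). Old NR hearts had 1815, 1537 and 1892 at ZT10 and 2335, 1869 and 1938 at ZT22, where the contrast was -0.23 (SE 0.10, adjusted p = 0.224) and the groups overlapped. With age Nampt differed by -0.01 (95% interval -0.21 to 0.18) at ZT10 and 0.09 (-0.11 to 0.29) at ZT22. With NR it differed by -0.21 (SE 0.10, adjusted p = 0.482) at ZT10, where all 3 old NR hearts were under all 3 old H2O hearts, and by 0.11 (SE 0.10, adjusted p = 0.777) at ZT22.

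Of the NAD kinases, Nadk was highest in young hearts at night and Nadk2 lowest there. Nadk had 574, 551.5 and 512 normalized counts in young hearts at ZT22, against 451, 500.3 and 467 in old H2O and 439.6, 440.2 and 444 in old NR hearts. Every young heart was above every old heart at that time. At ZT10 the ranges were 482.5 to 544 in young, 474 to 517 in old H2O and 486 to 505.5 in old NR hearts, all overlapping. Nadk fell with age at ZT22 by 0.20 on the log2 scale (SE 0.06, adjusted p = 0.0344), which was lost with DESeq2 (adjusted p = 0.0971, over all alternatives 0.0259 to 0.134) and without old H2O replicate 1 (-0.17) or 3 (-0.18) or young replicate 1 (-0.17) or 2 (-0.19). In old NR against young hearts it fell by 0.30 (SE 0.06, adjusted p = 0.00232), and that call was kept when any of the 6 hearts was omitted and under the 6 other settings.

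Nadk2 had 764, 839 and 715 normalized counts in young hearts at ZT22, 896, 859.6 and 817 in old H2O hearts and 983, 873 and 889.9 in old NR hearts. At ZT10 the ranges were 862 to 937, 895 to 922 and 797 to 986. The old NR hearts exceeded the young hearts at ZT22 by 0.24 (SE 0.08, adjusted p = 0.0401), lost with DESeq2 (adjusted p = 0.0614, over all alternatives 0.0245 to 0.185) and in 5 of the 6 fits that omitted a heart, all but that without young replicate 2, at 0.18 to 0.30. The time contrast in young hearts, 0.22 (SE 0.08, adjusted p = 0.0618), was not called. It stayed uncalled in 5 of 6 fits that omitted a heart and under 5 of 6 other settings, with an adjusted p of 0.034 to 0.248. The omission that gave a call was that of young replicate 2 at ZT22 (0.29, adjusted p = 0.034).

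Across the 18 hearts the log2 levels of Nmnat3 and Nadk2 had a Pearson correlation of 0.69 and those of Nmnat3 and Nadk of -0.64, the highest and the lowest among the 45 pairs of members. Among 11268 well expressed genes the pattern over hearts most like that of Nmrk2 was found for Cdk6 (r = 0.88), Nab2 (0.84), Dlgap4 (0.84), Rara (0.82) and Elmod3 (0.81). For Nampt these were Asb14 (0.93), Nedd4 (0.92), Mef2a (0.92), Cdh13 (0.91) and Txlnb (0.90). These are descriptions over hearts that share groups and library preparation, with the genes picked as the highest of many. Depth was not removed beyond scaling to library size. The old H2O hearts at ZT22 held 3922137, 6122256 and 7562215 counts. Their normalized counts were 2170.3, 1841 and 1688 for Nampt and 13600, 8634 and 7065 for the ventricular marker Myh6. Unscaled counts of the same hearts were 1472, 2065 and 2412 for Nampt and 9227, 9682 and 10095 for Myh6. Over all 18 hearts the unscaled Myh6 counts were 9056 to 10336, so scaling to library size sets most of the spread of its normalized counts. In young hearts at ZT22, with 4538090 to 6068397 counts, normalized Nampt was 1771 to 1794. The part of depth in these correlations, in the Nampt contrasts and in the sums of ventricular markers was not tested. In the 12 HL-1 libraries the genes most like Nampt among 9605 were Ugp2 (0.95), Tmem64, Cavin2, Mex3b and Brip1os (each 0.94), and Nmrk2 could not be placed there.

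The neighbouring steps of the pathway were described from lists of 9 genes of the route from tryptophan and 23 genes of precursor transport, breakdown and interconversion. Of the former 3 passed the count minimum in hearts, and none was called in any of the 14 contrasts. Of the latter 19 were tested. Between old H2O and young hearts at ZT22, 4 of 19 were called, against 14.1% of all genes, with a median of -0.06 where that of all genes was 0.00. Nt5c1a, which encodes a muscle 5′-nucleotidase, had 143, 143 and 115 normalized counts in young hearts at ZT22 and 243, 227 and 162 in old H2O hearts, which did not overlap, a rise of 0.63 (SE 0.14, adjusted p = 0.00395). Prps2, for an enzyme that makes the phosphoribosyl donor used by NAMPT, rose by 0.37 (SE 0.09, adjusted p = 0.00669) and Nudt13, for a mitochondrial pyrophosphatase of the reduced dinucleotides, by 0.24 (SE 0.07, adjusted p = 0.0259), while the nucleoside transporter gene Slc29a1 fell by 0.20 (SE 0.07, adjusted p = 0.0475). At ZT10 no gene of this list was called with age, and for NR against old H2O none was called at either time. In young hearts 1 of 19 was called between times (14.4% of all genes), Nt5c2, another nucleotidase gene, at -0.37 (SE 0.08, adjusted p = 0.00193). Over the mean of the 3 time contrasts 2 of 19 were called (13.9% of all genes), both lower at ZT10, Nt5c2 (-0.18, SE 0.04, adjusted p = 0.00558) and Nt5e (-0.22, SE 0.07, adjusted p = 0.0422), the latter for the ectoenzyme CD73 that makes NR from nicotinamide mononucleotide outside the cell. Over the mean of both times 5 of 19 were called between old H2O and young hearts (11.8% of all genes), the 4 named at ZT22 and the transporter gene Slc29a2 at -0.35 (SE 0.09, adjusted p = 0.017). Old NR hearts at ZT22 exceeded the same young hearts for Nt5c1a (0.64) and Nudt13 (0.26) and were lower for Slc29a1 (-0.21), which made 3 of 19 (14.2% of all genes).

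In HL-1 cells FK866 lowered 1 of the 9 members tested, Naprt, where 4.59% of all genes were called. Naprt had 119.9, 167 and 143 normalized counts in untreated cells and 86.5, 86.5 and 89.7 with FK866, without overlap, a log2 fold change of -0.71 (SE 0.16, adjusted p = 0.00434). That call was lost in a fit of these groups alone (adjusted p = 0.0159) and without untreated replicate 2 (-0.59) or 3 (-0.72) or any FK866 replicate (-0.73 to -0.70). Eef1d, which shares bases with Naprt, gave -0.11 (SE 0.08, adjusted p = 0.298) for the same contrast. Nmnat3 had 275, 298 and 369.7 normalized counts untreated and 234, 232 and 208 with FK866, -0.48 (SE 0.12, adjusted p = 0.00953), under the p threshold but short of the size required. The median over the 9 members was -0.17, with 8 of 9 below 0, and that over all genes 0.02. The 6 fibroblast markers moved too, from 3780 to 4140 CPM untreated to 2540 to 2680 with FK866, with 3 of 5 tested called lower, and their part in the members' values was not tested.

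Nampt, whose product FK866 inhibits, stayed within 1.5-fold in all HL-1 contrasts. It had 4380.0, 4176 and 4198 normalized counts untreated, 3763, 3544 and 3773 with FK866, 4059, 4326 and 4365 with FK866 and NR, and 3412, 3459 and 3798 when Ex527 was added. The untreated and FK866 with NR libraries were each above all libraries of FK866 alone. The values were -0.20 (SE 0.06, adjusted p = 0.0213) for FK866 against untreated, 0.20 (SE 0.06, adjusted p = 0.0196) for NR on top of FK866, and -0.26 (SE 0.06, adjusted p = 0.0182) for Ex527 on top of both, none under the threshold of 0.01. Without the library that stood apart, the contrasts with NR and with Ex527 were 0.24 (SE 0.07, adjusted p = 0.0245) and -0.29 (SE 0.07, adjusted p = 0.0329). Nadk, the most abundant member there, had 7433, 7330.4 and 7723 normalized counts untreated, 6794, 6686 and 6443 with FK866, 6312, 6489 and 6975 with FK866 and NR, and 7695, 7603 and 7815 with Ex527 added. It was lower with FK866 in all 3 libraries (-0.17, SE 0.05, adjusted p = 0.0273), and the contrast of Ex527 on top of FK866 and NR was 0.22 (SE 0.05, adjusted p = 0.0215), or 0.19 (adjusted p = 0.112) without the library that stood apart.

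No member was called for FK866 with NR against FK866, where 4.81% of all genes were called, or against untreated cells (0.901%), nor for the addition of Ex527 against FK866 (1.27%), against FK866 with NR (0.596%) or against untreated cells (1.42%). DESeq2 called 0 in each of them, and 4, 2, 2, 2 and 2 of the 9 members had an unadjusted p under 0.05 in these contrasts, beside 5934, 5797, 3999, 3430 and 4886 of the 14760 genes tested. Without the library that stood apart, the genes called went from 710 to 584 for FK866 with NR against FK866, from 133 to 0 against untreated cells and from 88 to 51 for Ex527 on top of FK866 and NR, with 15002 tested and no member called. Naprt had 102, 109 and 111 normalized counts with FK866 and NR, above all FK866 libraries and under all untreated ones, with 0.29 (SE 0.16, adjusted p = 0.197) against the former, or 0.32 (SE 0.18, adjusted p = 0.234) without that library. Nmnat2 had 170.4, 98.3 and 129.8 in that group, the highest value being that of the library with neuronal transcripts, and its contrast with FK866 moved from 0.48 (SE 0.18, adjusted p = 0.0517) to 0.28 (SE 0.16, adjusted p = 0.257) when that library was left out. Nmrk1, the only NR kinase gene with counts in these cells, had 374, 394 and 377 normalized counts untreated, 354, 375 and 321 with FK866, 414, 472.5 and 364 with FK866 and NR, and 408, 355 and 439 with Ex527 added, groups that overlapped throughout. Nmnat1, Nadsyn1 and Nadk2 gave contrasts between -0.14 and 0.17. Of the 17 tested genes of precursor transport and interconversion, Nt5e was called at -1.01 (SE 0.10, adjusted p = 6.14e-06) with FK866 and at 0.87 (SE 0.10, adjusted p = 2.69e-05) with NR on top, or 0.92 (SE 0.11, adjusted p = 8.7e-05) without that library, and Ex527 with both gave 0.73 (SE 0.10, adjusted p = 0.00037) against FK866. Its normalized counts were 472, 450.0 and 389 untreated, 203, 232 and 218 with FK866, 369.5, 402 and 423 with NR and 328, 372 and 380.4 with Ex527, those of FK866 alone lying under all others.

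**Figure D5:**
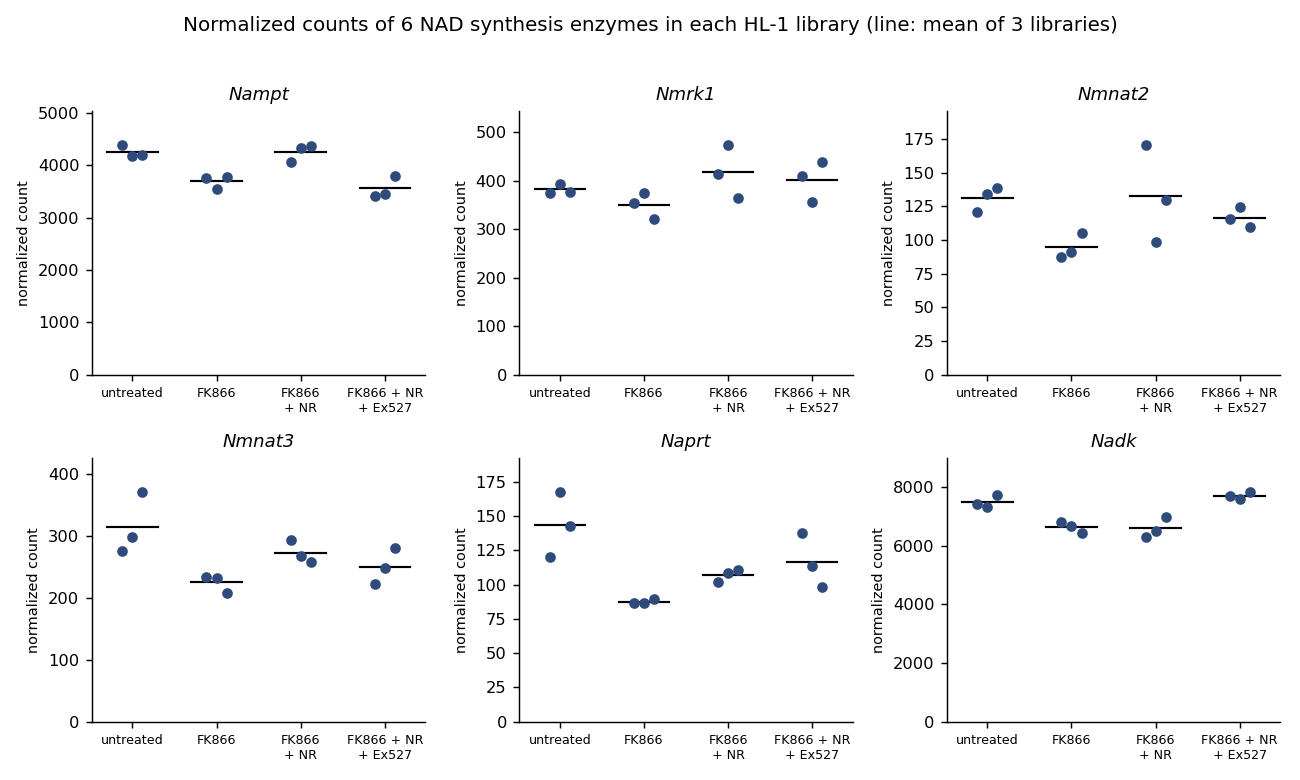
Normalized counts of 6 enzymes in each HL-1 library, 3 points and their mean for untreated cells, FK866, FK866 with NR, and FK866 with NR and Ex527. Naprt lay between 86.5 and 89.7 with FK866 against 119.9 to 167 untreated, and the highest Nmnat2 value (170.4) belongs to the library with neuronal transcripts.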

How the data were processed

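For the hearts, the study trimmed single-end reads (Trimmomatic 0.39), aligned them to mm10 (STAR 2.7.10a), removed duplicate (Picard 3.0.0), multi-mapping, ribosomal and mitochondrial reads and counted reads over exons of a single gene (featureCounts 2.0.4). The authors deposited those counts as they were, together with a second table whose values are a score, counts divided by size factors (DESeq2 1.36.0) and rounded. The labels of these tables are exchanged, and the second served for gene symbols and a check only. For HL-1 cells the authors deposited counts of poly(A) libraries made by a provider, and FPKM values, and their processing notes name HISAT2. Strand settings are not given in the sources used here.

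Counts were tested with edgeR 4.0.16 (limma 3.58.1, R 4.3.3; TMM normalization, quasi-likelihood F-test, two-sided), all 18 hearts in 1 fit of genes with a mean count over 5 (15443), all 12 HL-1 libraries in another of genes that passed filterByExpr (14760). The log2 fold change is the first group minus the second named, and its SE is its size over the root of F. The code was tested on simulated data. Alternatives were DESeq2 1.42.0, its size factors, other filters, fits of the compared groups alone, the replicate number as a block and leaving out each library. Of genes outside the members, only Nt5e was followed in an alternative, the fit without the HL-1 library that stood apart. By the rule for named genes, all 10 members were followed in every comparison, with values per library for those called, beside the called genes of the neighbouring steps and the 5 genes most like Nampt and Nmrk2. The members, gene lists and motifs were chosen with earlier results of these data known. The study describes hearts of individual mice and separately cultured wells, which was not tested here, and p-values measure the spread between these libraries. Depth limits Nmnat2 in hearts (2 to 10 counts), and RPKM used the gene lengths of the HL-1 table.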

Additional observations from a re-analysis of the deposited data

Results flagged for a closer look

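The interaction tests set 3 members apart as differing between groups in the same contrast. Of 10 members, 2 were called for age by time, where 6.89% of all genes were called, and 1 for NR by time (0.343%). For Nmnat3 the time contrast was 0.41 (SE 0.08) in young and -0.01 (SE 0.08) in old H2O hearts, an age by time interaction of -0.42 (SE 0.11, adjusted p = 0.0244). For Naprt it was 0.18 (SE 0.10) in young and -0.30 (SE 0.10) in old H2O hearts, an interaction of -0.48 (SE 0.14, adjusted p = 0.0436). For Nmrk2 it was 0.58 (SE 0.15) in old NR and -0.58 (SE 0.16) in old H2O hearts, an NR by time interaction of 1.17 (SE 0.22, adjusted p = 0.0201). With a single heart omitted, the Nmnat3 call was kept in 8 of 12 fits, that of Naprt in 4 and that of Nmrk2 in 9. Under the other settings they were kept in 5 of 6, 3 of 6 and 7 of 7, and DESeq2 lost those of Nmnat3 and Naprt.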

How the results depend on the processing

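With 3 libraries per group, many calls lay near the threshold and moved with the fit, and no called value changed direction under any alternative. Counts of members called that moved were as follows. DESeq2 called 0 members for the mean of the 3 time contrasts, 1 for old H2O against young hearts at ZT22, 1 for their mean over both times, 0 for the age by time interaction, 1 for old NR against old H2O at ZT10 (Nmrk2) and 3 for old NR against young hearts at ZT22. Without a filter on low counts there were 1 for age at ZT22, 1 for the age by time interaction, 1 for NR at ZT10 and 3 for old NR against young at ZT22. Fits of only the groups compared gave 2 for young hearts between times, 1 for age at ZT22, 1 for NR at ZT10, 2 for old NR against young at ZT22 and 0 for FK866 against untreated. With filterByExpr 1 member was called for NR at ZT10. Leaving out 1 library at a time gave 1 to 2 calls for time in young hearts, 0 to 0 in old H2O, 0 to 1 in old NR and 0 to 2 for their mean, 1 to 3 for age at ZT22, 0 to 2 for its mean and for the age by time interaction, 0 to 1 for the NR by time interaction, 2 to 4 for old NR against young at ZT22 and 0 to 1 for FK866. Summing the 2 most alike old NR hearts, chosen after seeing the data, moved none of the 6 counts it touches. Of 171 values never called, 90 of 2366 alternative fits changed sign, none with a main value over 0.18 in size. The cause of these moves was not tested. Levels kept their order for Nmrk2, at place 5 in hearts, under the 2 other scalings.

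The replicate numbers were not taken as pairs in the main fits. Same-numbered libraries of different groups correlated at -0.25 to 0.30 in hearts (median 0.08) and -0.66 to 0.34 in HL-1 cells. Differently numbered ones correlated at -0.44 to 0.43 in hearts (median -0.04) and -0.61 to 0.67 in HL-1 cells. Of the libraries, 12 of 18 hearts and 5 of 12 from HL-1 cells were closest to their own number among 3. These values do not exclude a structure by number in the hearts, and its source was not tested. With the replicate block 1 member was called for NR at ZT10 (Nmrk2, adjusted p = 0.0204), and Nmrk2 gained a call for the age by time interaction (-0.68, adjusted p = 0.038).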

Other observations

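Nnt, for the transhydrogenase that links NADH and NADP+ in mitochondria, was the only gene of the transport and interconversion list called for the age by time interaction, where 6.89% of all genes were called. It had 38.1, 47.7 and 45.6 normalized counts in young hearts at ZT10 and 33.5, 31.2 and 35.9 at ZT22, without overlap. Old H2O hearts had 41.2, 30.1 and 29.6 at ZT10 and 50.1, 43.7 and 48.3 at ZT22, without overlap and in the other direction. The age by time interaction was -0.88 (SE 0.27, adjusted p = 0.0478), close to the threshold, and Nnt was not followed in the alternative fits. C57BL/6J mice are known to carry a deletion in Nnt that C57BL/6N mice lack, and the hearts came from a mixed background, whose part in these values was not tested.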
